A study of Mus musculus with 6 samples.

Results

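The genes of mitochondrial protein import and cristae were taken from the RNA sequencing of mouse hind leg muscle as every row whose symbol starts with Timm, Tomm or Chchd and a digit, or with Micos, or is Immt. The rule gave 35 of the 16759 genes in the table. All mice were male C57BL/6J, 8 weeks old at the start. The 3 control (Con) mice stayed off the treadmill. The 3 exercise (EX) mice were trained in weekly blocks of 5 sessions of 60 min over 6 weeks, with a running distance of 22 km per mouse, and were killed 24 h after their last session. Each mouse gave 1 library from a piece of hind leg muscle, and the name of the muscle is not given in the sources used here. The comparison of EX with Con asked what moderate training does to the transcripts of this machinery.

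Nearly all mitochondrial proteins are made in the cytosol from nuclear genes and carried into the organelle. The TOM complex of the outer membrane is the common entry gate, the TIM23 complex passes proteins with a presequence into the matrix or inner membrane, and the TIM22 complex inserts carrier proteins, which small TIM chaperones escort across the intermembrane space. MICOS holds the junctions at which the inner membrane folds into cristae, where the respiratory chain sits, and some of its subunits share the CHCHD fold, a helical hairpin locked by disulphide bonds, with a family of small proteins imported by the oxidoreductase Chchd4. Skeletal muscle is rich in mitochondria, and endurance training is known to raise their amount.

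The libraries held between 13845362 and 16240431 counts on genes, and all EX totals lay above all Con totals (p = 0.1 in a two-sided exact permutation test, which cannot go lower with 3 against 3). The 20 most abundant genes took 30.1% to 30.8% of the counts in Con and 31.7% to 32.5% in EX. All 8 markers of the muscle fibre were present, with a summed level of 147415 to 153935 CPM (counts scaled to a common library size by edgeR's TMM method) in Con and 157813 to 165456 in EX. Of these, 2 were called higher, Acta1 and Pvalb (log2 fold change 0.223 and 0.347), and 3 lower, Myh2, Mb and Myh1. The log2 fold change was -0.746 for Myh2 (mean 755 CPM in Con and 450 in EX), -0.14 for Mb and -0.0873 for Myh1. The 6 markers of slow fibres, a fibre type with many mitochondria, rose from a summed 45.6 to 51.0 CPM in Con to 229.8 to 259 in EX, and all 6 passed the test. Their log2 fold changes ran from 0.404 for Myl3 to 6.65 for Myh7, with a median of 4.55. Myl3, with a mean of 42.7 CPM in Con, made up most of the Con sum. The summed markers of fat cells went from 14.1 to 15.3 CPM to 34.8 to 39.3, with 4 of 4 tested genes higher, those of macrophages from 35.2 to 38.8 to 66.2 to 73.1 with 5 of 6 higher, and those of tendon and fibroblasts from 374 to 381 to 574 to 591 with 4 of 5 higher. Markers of endothelium went the other way, from 565 to 580.0 to 492 to 515 with 3 of 6 lower and 1 higher, as did those of Schwann cells, from 96.0 to 106.7 to 74.0 to 79.7 with 3 of 4 lower. The 5 markers of red cells summed to 242 to 266 CPM in Con and 264 to 291 in EX, with 1 of 5 higher. The brown fat markers Cidea and Elovl3 were both too low to be tested. The part of these cell types in the values below was not tested, and in bulk muscle fewer cells of a type and less RNA per cell cannot be told apart.

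The levels spanned a wide range. Per length, as TPM (transcript level scaled to a fixed sum per library), the 34 genes whose mean reached 1 FPKM (fragments per kilobase of transcript, scaled by depth) ran from 6.04 for Chchd6 to 1017 for Chchd2 as means over the 6 libraries, a ratio of 168. Their median was 60.8 TPM, against 12.7 TPM over all genes tested. The highest was Chchd2 (gene 14004), a protein of the intermembrane space linked to cristae and respiration, with 1016, 1006 and 1043 TPM in Con and 1037, 977 and 1026 in EX. Its close relative Chchd10 followed with 599, 573 and 564 TPM in Con and 557, 555 and 571 in EX, so that the ratio of Chchd2 to Chchd10 was 1.77 ± 0.0757 (SD, n = 3) in Con and 1.81 ± 0.0523 in EX. Next stood the small chaperone Timm8b, the inner membrane channel Timm23, the MICOS subunit Chchd3, the mitochondrial ribosome protein Chchd1, Timm17a, Immt and Tomm5. For each of these 9 genes the lowest library lay above the highest library of the next gene. Further down the order the ranges ran into each other, and over the whole order they overlapped in 21 of 33 neighbouring pairs. Timm8a2, a close relative of Timm8a1, was at the limit of detection, with counts of 0, 1 and 0 in Con and 0, 0 and 2 in EX, where 3 counts, the limit that a count of 0 allows, correspond to 0.188 to 0.215 CPM and cover counting error only.

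**Figure D1:**
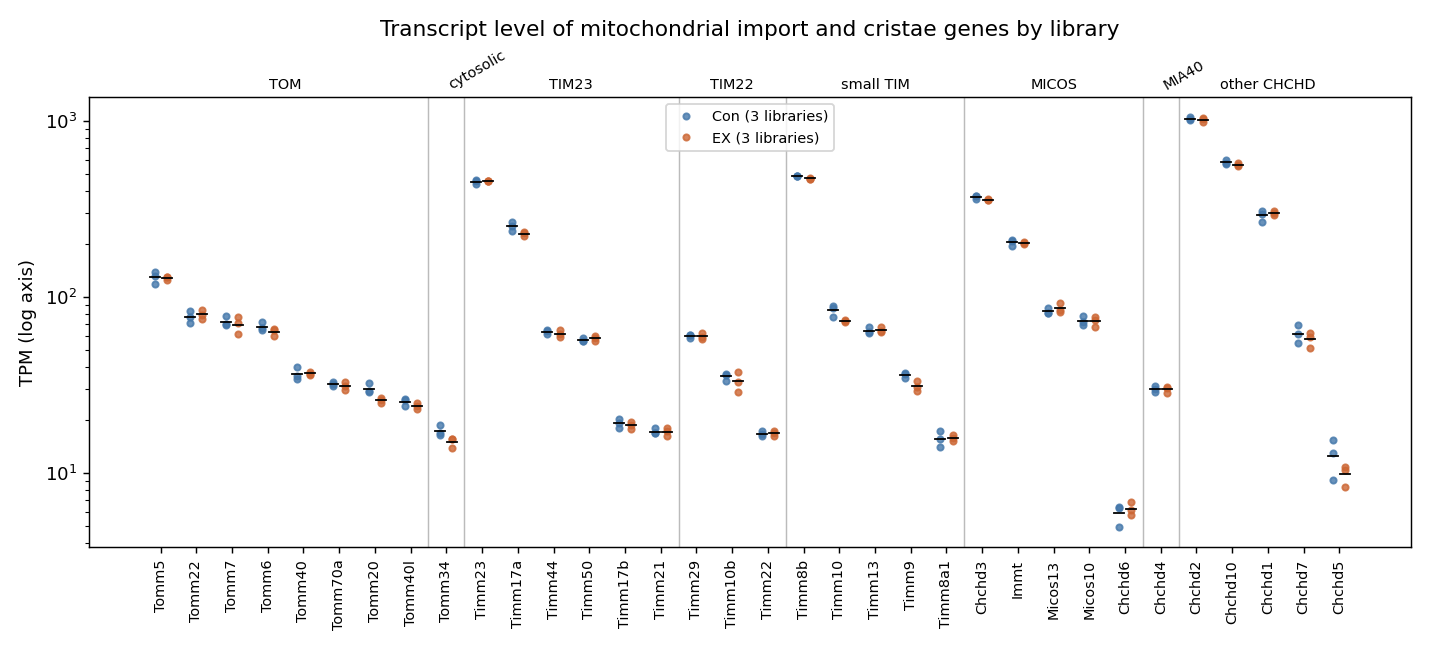
Level in TPM (log axis) of the 34 tested genes in each of the 6 libraries, grouped by the complex they belong to, with Con in blue, EX in orange and a bar at each mean of 3 libraries. Levels differ far more between genes, from Chchd6 to Chchd2, than between Con and EX for any one gene.

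Paralogues were used unequally. Of the 2 forms of the channel partner in the TIM23 complex, Timm17a stood at 239.6 and Timm17b at 18.8 TPM, and the ratio was 13.2 ± 0.0399 (SD, n = 3) in Con and 12.3 ± 0.853 in EX. The 3 EX ratios of 13.0, 11.4 and 12.6 lay below the 3 Con ratios of 13.2, 13.2 and 13.1. Timm8b exceeded Timm8a1, at 15.6 TPM, by a ratio of 31.2 ± 3.27 in Con and 29.9 ± 1.05 in EX. The MICOS subunit Chchd3 exceeded its relative Chchd6 by 63.2 ± 7.95 in Con and 57.3 ± 4.91 in EX. The pore protein Tomm40 and its relative Tomm40l differed least, with Tomm40 higher by a ratio of 1.44 ± 0.0746 in Con and 1.53 ± 0.0809 in EX. For the last 3 pairs the ratios of the groups overlapped. In the mouse annotation GENCODE M21, 11.4% of the exon bases of Chchd10 lie in exons of genes on the opposite strand, 64.3% of the exon bases of Tomm40l also lie in exons of Nr1i3 on the opposite strand, and 84.2% of those of Tomm6 lie in exons of other genes. The share in exons of other genes is 15.6% for Timm8b, on the opposite strand, and 22.1% for Timm10b. The sources used here do not say whether the counting used strand. The levels of Chchd10, Timm8b, Timm10b, Tomm40l and Tomm6 are therefore uncertain.

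In the quasi-likelihood test of edgeR, adjusted after Benjamini and Hochberg over all 10883 genes tested, 2 of the 34 tested genes passed an adjusted p of 0.05, Timm23 and Chchd1, both higher in EX. Among all genes tested 9.11% were called higher and 8.8% lower. No gene of the set was called lower in this fit or by DESeq2, while Tomm20, Chchd5, Timm9 and Timm10 were called lower under other settings given with them, and DESeq2 called none higher either, while it called 11.3% of all genes. At an unadjusted p under 0.05 edgeR gave 8 higher and 1 lower of the 34, against 15.5% and 15.1% of all genes, and DESeq2 gave 4 in all, against 21.4% of all genes. Limma on log2(FPKM + 0.1) or log2(FPKM + 1) gave 4 as well, against 29.8% of all genes. The estimates ranged from a log2 fold change of -0.24 for Chchd5 to 0.21 for Chchd6, 2 of the lowest genes, and 32 of 34 were smaller than 0.2 in size. The 95% interval of the change lay within 0.3 of 0 on the log2 scale for 31 of the 34 genes and within 0.2 of 0 for 15. The median size of the change was 0.091, against 0.098 over all genes tested.

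**Figure D2:**
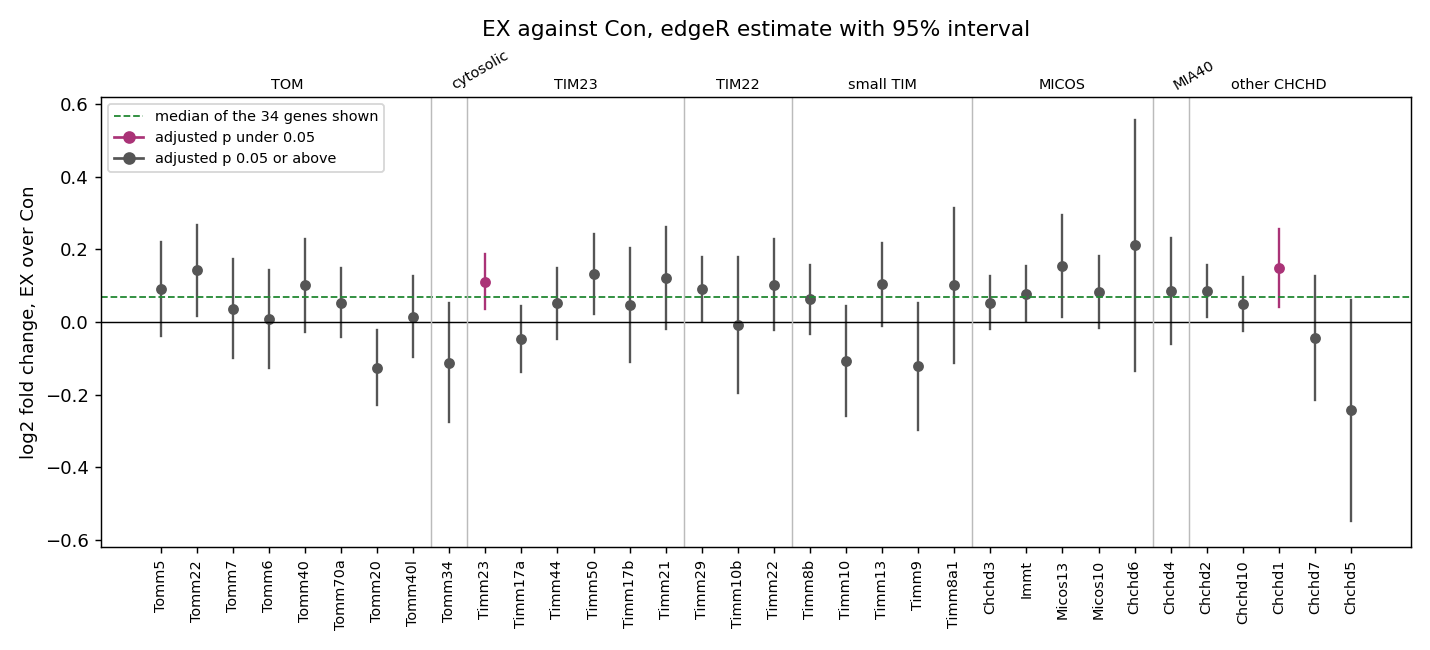
Log2 fold change of EX over Con from edgeR (vertical axis) for the 34 tested genes by complex, with 95% intervals and the genes past the adjusted threshold in purple. Only Timm23 and Chchd1 are purple, and 26 points lie above 0 and 8 below.

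The estimates leaned to one side. A log2 fold change above 0 was found for 26 of the 34 genes and for 49.7% of all genes tested, and the median was 0.070 against -0.00093 over all genes. In CPM the 3 EX values lay above all Con values for 12 of the 34 genes and below them for none, against 16.7% and 16.9% of all genes. This lean depended on how libraries were scaled. With library totals alone, chosen after seeing the data, 18 of 34 estimates were above 0, with limma on log2(FPKM + 0.1) 17, and with limma on log2(TPM + 0.1) 10. In TPM, EX lay above Con without overlap for 0 of the 34 genes and below it for 6, against 6.4% and 33.5% of all genes. The difference between the median of the set and that of all genes was more even, from 0.050 to 0.087 over the 17 settings tried.

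**Figure D3:**
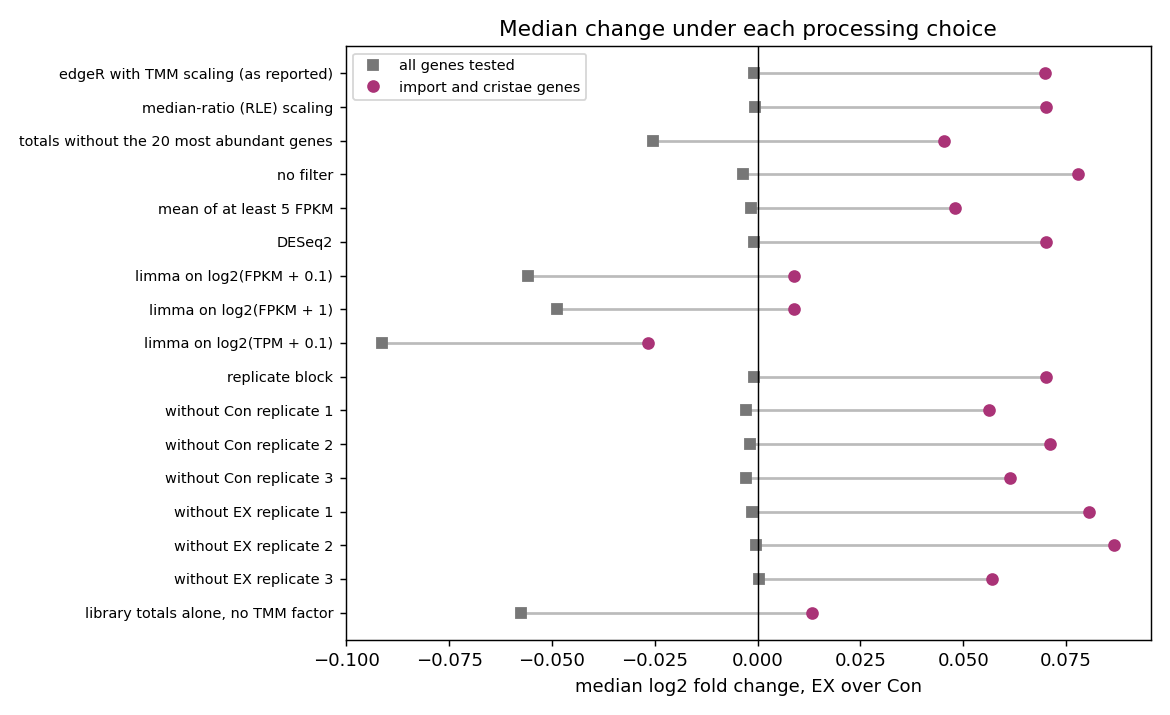
Median log2 fold change of EX over Con (horizontal axis) over the import and cristae genes (circles) and over all genes tested (squares) under each processing setting. The circles lie to the right of the squares by 0.050 to 0.087 in every row, while both move with the scaling and the circle falls to -0.027 with TPM.

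Timm23 (gene 53600), the channel of the presequence translocase, had 249, 258 and 257 CPM in Con and 269, 281 and 275 in EX. The groups did not overlap, and the lowest EX value exceeded the highest Con value by little. The mean was 255 ± 5.14 CPM (SD, n = 3) in Con and 275 ± 5.86 in EX, and the fitted log2 change was 0.11 (SE 0.037, edgeR adjusted p = 0.0345). A small RNA gene overlaps 5.82% of its exon bases. In TPM its values were 434, 454 and 458 in Con and 452, 456 and 455 in EX, and these overlapped. The call held in 5 of 17 settings, and of the fits that left out 1 library it held only without EX replicate 1. Without Con replicate 1 the adjusted p was 0.079, without Con replicate 2 it was 0.071, without Con replicate 3 it was 0.055, without EX replicate 2 it was 0.14 and without EX replicate 3 it was 0.12.

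Chchd1 (gene 66121), a CHCHD protein that serves as a small subunit protein of the mitochondrial ribosome, had 49.6, 54.6 and 54.6 CPM in Con and 55.8, 61.3 and 59.3 in EX. Con replicate 1 was the lowest, and the other Con values lay just under the lowest EX value. The mean was 52.9 ± 2.87 CPM in Con and 58.8 ± 2.78 in EX, and the fitted log2 change was 0.15 (SE 0.052, edgeR adjusted p = 0.0481). An antisense gene overlaps 2.53% of its exon bases. Its TPM overlapped, with 265, 295 and 307 in Con and 290.1, 308 and 298 in EX. This call also held in 5 of 17 settings. The adjusted p was 0.20 without Con replicate 1, 0.068 without Con replicate 2, 0.20 without EX replicate 2 and 0.14 without EX replicate 3.

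Both genes lie on chromosome 14, and the 250 bases before their start sites are shown because they are the 2 that passed the test. The sequences are RefSeq's for build GRCm38.p6, for Timm23 chr14:32201892-32202141 on the minus strand and for Chchd1 chr14:20702777-20703026 on the plus strand, written 5′ to 3′ along the gene. Capitals mark the letters of a GABPA match (ACTTCCGG, the reverse complement of CCGGAAGT) in Timm23 and of an E-box (CACGTG) in Chchd1.
Timm23: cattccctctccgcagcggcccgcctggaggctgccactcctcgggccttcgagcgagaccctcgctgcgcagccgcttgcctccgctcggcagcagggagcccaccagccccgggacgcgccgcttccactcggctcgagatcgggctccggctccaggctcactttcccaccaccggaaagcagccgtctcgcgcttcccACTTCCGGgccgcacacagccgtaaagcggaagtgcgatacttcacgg
Chchd1: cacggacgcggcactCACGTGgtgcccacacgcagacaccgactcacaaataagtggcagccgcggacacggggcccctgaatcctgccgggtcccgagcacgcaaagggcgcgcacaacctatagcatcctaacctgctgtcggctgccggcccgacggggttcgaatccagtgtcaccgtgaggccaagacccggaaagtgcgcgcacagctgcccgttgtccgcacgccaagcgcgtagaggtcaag
Neither window held the longer NRF1 motif that was searched, and a match or its absence is a description of these letters only.

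**Figure D4:**
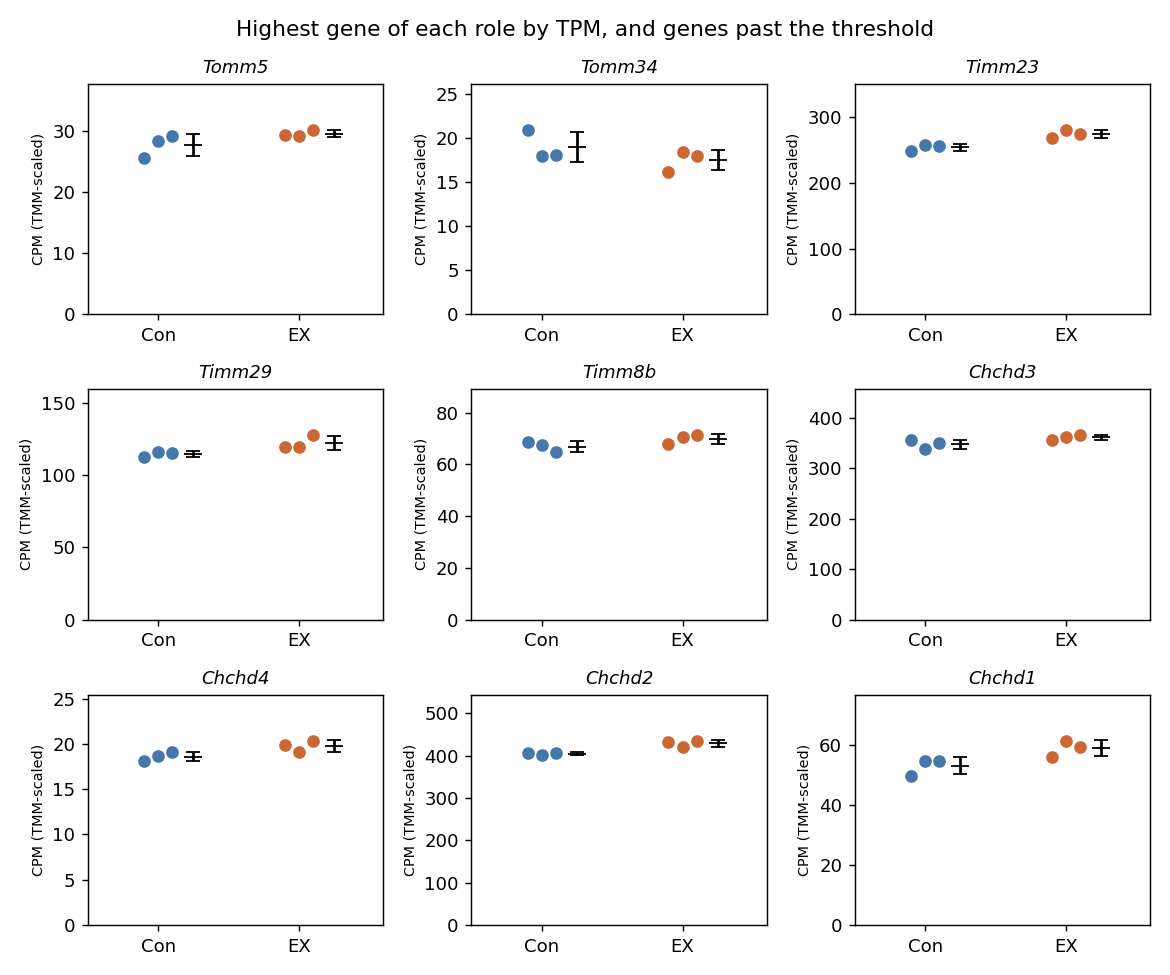
CPM, scaled by TMM, (vertical axes from 0) in the 3 Con and 3 EX libraries for the highest gene of each complex or role by TPM and for Chchd1, with the mean and SD beside the points. The EX points lie above all Con points for Tomm5, Timm23, Timm29, Chchd3, Chchd4, Chchd2 and Chchd1, by little in each case. They overlap the Con points for Timm8b and Tomm34. EX lay above Con in this way for 12 of the 34 genes and for 16.7% of all genes tested.

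In the TOM complex, 0 of 8 genes passed edgeR's test, with Tomm22 and Tomm20 at an unadjusted p under 0.05, 1 in each direction, and the summed level was 372 to 377 CPM in Con and 376 to 387 in EX. The receptors that recognise incoming proteins differed in sign. Tomm22 had 34.1, 39.2 and 35.5 CPM in Con and 39.3, 38.3 and 42.7 in EX (log2 fold change 0.14, 95% interval 0.018 to 0.27). Tomm20, the presequence receptor, had 103, 90.7 and 90.8 in Con and 82.8, 90.7 and 86.5 in EX, and its values met at the edge, since the highest EX library was level with the lowest Con library. Its log2 fold change was -0.13 (standard error 0.050, edgeR adjusted p = 0.0857), the 1 negative estimate in the complex. Its 95% interval of -0.23 to -0.022 left out 0, and over the 17 settings tried the estimate ran from -0.22 to -0.070. Tomm20 passed the threshold, lower in EX, in 5 of 17 settings, among them limma on TPM (adjusted p = 0.032), where all EX values of 24.9, 26.5 and 25.8 lay below the Con values of 32.3, 28.7 and 28.9. That fit called 15.5% of all genes lower, with a median of -0.091 over all genes, and 33.5% of all genes lay lower in TPM without overlap. Tomm70a, the receptor for carrier proteins, had an estimate of 0.053 (95% interval -0.041 to 0.15). The pore protein Tomm40 had 30.6, 28.8 and 33.2 CPM in Con and 32.4, 33.1 and 33.9 in EX, and Tomm40l had 45.4, 41.2 and 44.8 and 45.3, 44.9 and 42.5. Both pairs of groups overlapped. The small subunit Tomm5, the highest of the complex per length at 128 TPM, had 25.6, 28.3 and 29.1 CPM in Con and 29.3, 29.2 and 30.2 in EX (log2 fold change 0.091, edgeR adjusted p = 0.356). Tomm6 and Tomm7, which steady the complex, had log2 fold changes of 0.0084 and 0.037 and did not pass. Tomm34, a cytosolic co-chaperone rather than a membrane subunit, had 20.9, 18.0 and 18.1 CPM in Con and 16.2, 18.4 and 18.0 in EX, a log2 fold change of -0.11 (95% interval -0.28 to 0.052).

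In the TIM23 complex, Timm23 was the only 1 of 6 genes that passed, and 5 of 6 estimates were above 0. The summed level of the complex was 480 to 502 CPM in Con and 514 to 524 in EX, without overlap. Timm23 was the largest part of this sum and alone went from a mean of 255 CPM in Con to 275 in EX. In TPM the sum was 822 to 880 in Con and 826 to 844 in EX, with overlap. Timm50, the receptor that takes over proteins from TOM, had 37.1, 38.6 and 36.3 CPM in Con and 40.3, 40.6 and 41.7 in EX, a log2 fold change of 0.13 (edgeR adjusted p = 0.0937). The estimate was 0.12 (95% interval -0.019 to 0.26) for Timm21, which links the complex to TOM, and 0.051 (95% interval -0.046 to 0.15) for Timm44, which anchors the import motor. The channel partner Timm17a went the other way, with 95.9, 102 and 105 CPM in Con and 97.3, 95.8 and 99.9 in EX and a log2 fold change of -0.047 (95% interval -0.14 to 0.044). Timm17b had 16.9, 18.0 and 18.7 and 17.4, 19.6 and 18.4, an estimate of 0.047 (95% interval -0.11 to 0.20). Both intervals held 0.

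None of the 3 genes of the TIM22 complex and none of the 5 tested small chaperones passed edgeR's test, where 1 gene, Timm29, had an unadjusted p under 0.05. With limma on TPM, Timm9 and Timm10 passed as lower, in a fit that called 15.5% of all genes tested lower, with a median of -0.091 over all genes. Timm29, a subunit of the carrier translocase, had 112, 116 and 116 CPM in Con and 119, 119.6 and 128 in EX, a log2 fold change of 0.091 (95% interval 0.0034 to 0.18). The estimate was 0.10 for the channel Timm22 and -0.0086 for the bound chaperone Timm10b, the latter with 22.1% of its exon bases shared with other genes. Timm9 and Timm10, which form the main chaperone ring together, both had estimates below 0. Timm9 had 15.1, 14.1 and 14.4 CPM in Con and 12.3, 14.3 and 13.3 in EX, and Timm10 had 18.1, 20.2 and 19.8 and 17.7, 18.5 and 17.8. In CPM both overlapped between the groups. In TPM both lay lower in EX without overlap, as did 33.5% of all genes, for Timm9 at 29.2, 33.0 and 30.6 against 36.4, 34.4 and 36.6 and for Timm10 at 72.8, 73.5 and 71.5 against 76.9, 86.6 and 87.9 (limma adjusted p = 0.0315 and 0.0314). The chaperones of the other ring had estimates above 0, with 0.10 for Timm13, 0.10 for Timm8a1 and 0.062 for Timm8b. Timm8a1 had 9.54, 10.6 and 8.47 CPM in Con and 10.0, 10.0 and 10.6 in EX, and the groups overlapped. Timm8b, with 15.6% of its exon bases shared with another gene, was among the genes of the set whose direction depended on the scale. Its CPM were 68.5, 67.6 and 64.7 in Con and 67.8, 70.5 and 71.3 in EX, overlapping with a higher mean in EX, while its TPM were 483, 483 and 485 and 467, 468 and 471, all lower in EX.

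In MICOS, all 5 estimates were above 0 with edgeR, and 0 of 5 passed, with Immt and Micos13 at an unadjusted p under 0.05, and none passed with DESeq2. The summed level was 780 to 796 CPM in Con and 823 to 833 in EX, without overlap. In TPM it was 723 to 741 in Con and 719 to 722 in EX, so the direction reversed, again without overlap, on a scale that lowered the median of all genes. With limma on log2(TPM + 0.1), where the median of all genes was -0.091, the estimates were -0.014 for Immt, -0.049 for Chchd3 and -0.0086 for Micos10, below 0 but above that median, and 0.055 for Micos13 and 0.087 for Chchd6. Immt, also called mitofilin, which spans the crista junction, had 293, 308 and 311 CPM in Con and 321, 328 and 314 in EX, and the fitted log2 change was 0.077 (SE 0.037, edgeR adjusted p = 0.154). Chchd3, its partner in the intermembrane space, had 355, 338 and 351 CPM in Con and 356, 362 and 366 in EX (log2 fold change 0.054), with counts that were not whole in any library. The edgeR estimate was 0.15 for Micos13 (95% interval 0.014 to 0.29) and for Micos10 0.082 (95% interval -0.017 to 0.18). Chchd6 had the widest error of the set, with 3.44, 2.67 and 3.39 CPM in Con and 3.34, 4.14 and 3.49 in EX and a 95% interval of -0.13 to 0.56.

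Chchd4, the oxidoreductase that traps CHCHD proteins and small TIM chaperones by forming their disulphide bonds, had 18.1, 18.6 and 19.1 CPM in Con and 19.9, 19.1 and 20.4 in EX, a log2 fold change of 0.087 (95% interval -0.059 to 0.23). Chchd2 had 407, 400.4 and 406 CPM in Con and 432, 420.4 and 436 in EX, without overlap, with counts that were not whole and a log2 fold change of 0.085 (edgeR adjusted p = 0.0911). In TPM its groups overlapped. Chchd10 had 477, 453 and 441 and 462, 476 and 480.5 CPM, and its groups overlapped (log2 fold change 0.049). Chchd5 and Chchd7, whose roles are less well known, had log2 fold changes of -0.24 and -0.044 and did not pass. For Chchd5 the Con values of 10.3, 8.52 and 5.96 CPM spread so widely that they covered all but the lowest of the EX values of 7.44, 7.45 and 5.84. Without Con replicate 3, the lowest of the Con values, its change was -0.44 (edgeR adjusted p = 0.022). Over the 17 settings tried the change of Chchd5 ran from -0.44 to -0.069, and it passed in 1.

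The rest of the import pathway was described from a list of other known genes. The table held 34 of these, of which 33 were tested, and 3 passed, all higher in EX, which is 9.09% against 9.11% of all genes tested. Their median change was 0.054, and 25 of 33 estimates were above 0. Hspd1, the folding chaperone of the matrix, rose from 198, 216 and 209 CPM in Con to 247, 241 and 247 in EX, without overlap, and the fitted log2 change was 0.24 (SE 0.039, edgeR adjusted p = 5.5e-05). Grpel2, a nucleotide exchange factor of the import motor's Hsp70, rose from 24.9, 22.8 and 24.5 to 27.9, 28.9 and 29.1 CPM (log2 fold change 0.25, edgeR adjusted p = 0.00597). Dnajc15, a J-protein of the inner membrane related to the motor's co-chaperone, rose from 32.3, 31.7 and 30.5 to 37.7, 38.7 and 36.5 CPM (log2 fold change 0.26, edgeR adjusted p = 0.00172). The calls held in 16, 13 and 17 of 17 settings for Hspd1, Grpel2 and Dnajc15. Genes that did not pass included Hspa9, the import motor itself, with an estimate of 0.041 (95% interval -0.032 to 0.11). Samm50, which builds barrel proteins into the outer membrane, did not pass either, with 0.10 (95% interval 0.020 to 0.19, edgeR adjusted p = 0.0772). Nor did the fusion protein Opa1, which shapes cristae, with 0.00058 (95% interval -0.093 to 0.094). Of the 8 tested genes of cristae outside the rule 0 passed edgeR's test, with 2 at an unadjusted p under 0.05.

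Other nuclear genes for mitochondrial proteins are given beside the set. The median log2 fold change was 0.052 over 82 tested genes for respiratory complexes and the ATP synthase, with 13 called higher and 2 lower. It was 0.085 over 78 mitochondrial ribosomal proteins, with 9 called higher and 0 lower by edgeR. At an unadjusted p under 0.05 edgeR gave 25 higher and 3 lower of the first list and 20 and 2 of the second. Of all genes tested 15.5% were higher and 15.1% lower at that p. Estimates above 0 made up 70.7% and 79.5% of these lists and 76.5% of the import and cristae genes. The share called in either direction was 18.3%, 11.5% and 5.88%, against 17.9% of all genes. The lists were not compared by a test.

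The promoters of the set were described from RefSeq windows of 300 bases, 250 before and 50 after each start, which were found for 30 of the 35 genes in 33 windows, 32 of them of tested genes. The median GC content of these 32 was 58.2%, against 60.7% for the windows of all genes tested. Motifs were searched on both strands. The GABPA letters CCGGAAGT, named for a factor known to act on nuclear genes of mitochondrial proteins, stood in 6 of the 32 windows, or 18.8%, against 8.27% of the windows of all genes tested, and also in that of Timm8a2, which was not tested. The longer NRF1 motif stood in 0 windows against 2.11%, and its shorter core GCATGCGC, which lies within it, in 1 window, that of Timm13, against 5.23%. YY1 letters (AAGATGGC) were found in 1 window, that of Timm50, against 4.56%, E-box letters (CACGTG) in 6 windows (18.8%) against 10.1%, and TATAAA in 4 windows (12.5%) against 7.33%. The ERR letters TNAAGGTCA stood in 1 window, that of Timm8b, against 0.695%.

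Of the genes with a GABPA match, the stretch around the match nearest to the start is shown, with the match in capitals, to let the sites be compared between the complexes. The stretches are RefSeq's for GRCm38.p6, written 5′ to 3′ along the gene. They lie at chr16:57121623-57121652 (80 bases before the start) for Tomm70a, chr14:32201921-32201950 (48 bases before the start) for Timm23, chr9:21592498-21592527 (213 bases before the start) for Timm29, chr2:84827026-84827055 (17 bases after the start) for Timm10, chr7:105640469-105640494 (36 bases after the start) for Timm10b and chr2:129129623-129129652 (66 bases before the start) for Chchd5. The ERR match of Timm8b, at chr9:50603794-50603824, is given last.
Tomm70a: gccttctgaccCCGGAAGTggttctcccct
Timm23: tcgcgcttcccACTTCCGGgccgcacacag
Timm29: gagctctgaccACTTCCGGgctccactcac
Timm10: tagacttccttCCGGAAGTgacccacgtgc
Timm10b: agtgagagtttACTTCCGGggcgact
Chchd5: tagctgacggaCCGGAAGTagttacagggg
Timm8b: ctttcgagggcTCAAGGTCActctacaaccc
The match reads CCGGAAGT in Tomm70a, Timm10 and Chchd5 and its reverse complement, ACTTCCGG, in the others. The genes with a match had estimates of both signs, from -0.24 for Chchd5 and -0.11 for Timm10 to 0.091 for Timm29 and 0.11 for Timm23. Timm8a2, near the limit of detection in muscle, also held matches.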

How the data were processed

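RNA of hind leg muscle from 3 Con and 3 EX mice was sequenced as 150 bp pairs on the DNBseq platform, with 1 library per mouse. The authors aligned the cleaned reads with HISAT to GRCm39 per their methods, while the labels name the build GRCm38.p6 and the tools cutadapt, featureCounts and MultiQC without their roles. The authors deposited 1 table with estimated counts, which are not normalized, and with FPKM and TPM values, which are their normalization per length and library. The 6 columns of group means in it were not used.

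Estimated counts were rounded to whole numbers, and 10883 of 16759 genes whose mean reached 1 FPKM were fitted with edgeR 4.0.16 (TMM, glmQLFit, glmQLFTest) in R 4.3.3. The threshold was a Benjamini-Hochberg adjusted p of 0.05 with no limit on the fold change. Alternatives were limma 3.58.1 on log2(FPKM + 0.1), log2(FPKM + 1) and log2(TPM + 0.1), which understate the change of low genes, DESeq2 1.42.0, other scalings and filters, a replicate block, and each library left out in turn. Library totals alone were added as a scaling after seeing the data. The genes and lists were chosen with earlier results of these data known, so no list was tested. Values in every library are given for genes past the threshold, the highest gene of each role and the paralogue pairs, and for others chosen after their values were seen. No pairs of libraries in a group were alike within sampling noise. The table gives no positions, and sequences are RefSeq's for GRCm38.p6. Counts on exons shared with another gene may be split. Counts were not whole for 2 of the 35 genes, Chchd2 and Chchd3, which share 0.0% of their exon bases with other genes in GENCODE M21. The source of these counts was not tested. The mice are separate animals, and no batch is named in the sources used here.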

Additional observations from a re-analysis of the deposited data

How the results depend on the processing

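The main counts were 1949 genes past the threshold, 2 of 34 import and cristae genes past it, 26 of 34 with an estimate above 0 and a median log2 fold change of 0.070. With median-ratio scaling none of these moved by more than 1.5 times. DESeq2 called 1228 genes (11.3% of all tested) and 0 of the set, with 4 of it and 21.4% of all genes at an unadjusted p under 0.05. Limma called 0 of the set on log2(FPKM + 0.1) and on log2(FPKM + 1), with 4 of it and 29.8% of all genes at an unadjusted p under 0.05, 17 estimates above 0 and a median of 0.0088 in each, and with 13.3% of all genes called. On log2(TPM + 0.1) it called 3 of the set, all lower, against 15.5% of all genes called lower, with 10 estimates above 0 and a median of -0.027. The set's count was 1 without a filter (12.0% of all genes called), 1 with a mean of at least 5 FPKM (20.5%, median 0.048), 1 with totals without the 20 most abundant genes (18.7%, median 0.045) and 1 with library totals alone (21.7%, median 0.013), and in the last 3 that gene was Tomm20, lower. The share of all calls that were higher was 50.9% as reported, 37.7% without the 20 most abundant genes, 24.8% with library totals alone, 28.4% with FPKM and 16.8% with TPM. These scalings moved the median of all genes to as low as -0.091. Leaving out 1 library gave 1344 to 1857 genes past the threshold (12.3% to 17.1%), 0 to 3 genes of the set, 25 or 26 estimates above 0 and a median of 0.056 to 0.087. The 3 were Chchd1, higher, and Chchd5 and Tomm20, lower, without Con replicate 3, and without Con replicate 2 the only gene was Tomm22. For these changes the cause was not tested.

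The labels give Con and EX the same replicate numbers, but libraries with equal numbers did not deviate together (correlations of -0.084, -0.052 and -0.073 across genes). With the replicate block 1782 genes (16.4%) passed, with the same 2 genes of the set. Among the single genes and settings, 453 values kept their sign and their side of the threshold, 24 lost a call, 9 gained one and 57 changed sign without a call in either fit. At these depths the standard error of a gene's log2 fold change ran from 0.035 to 0.17, with a median of 0.061.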
